A study of Homo sapiens with 8 samples.

Results

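The forkhead transcription factors FOXO1, FOXO3 and FOXO4 were followed together with 7 genes known as FOXO targets or as regulators of the same pathway, namely DEPP1, PDK4, IRS2, KLF15, SESN3, CITED2 and PIK3IP1. These 10 genes, of 57500 in the deposited count table, were chosen by name with earlier results of these data known. DEPP1 was on the list because it was among the genes with the largest increases in these data. Its change between the groups is therefore given as a description without a p-value. The cells were HEK293T, a human embryonic kidney line transformed by adenovirus DNA and expressing a viral T antigen. 4 libraries came from cells given the vehicle (Control) and 4 from cells given 100 µM DZNep, 3-deazaneplanocin A, an inhibitor of S-adenosylhomocysteine hydrolase that blocks cellular methylation reactions, and both groups were collected after 48 h. The replicates were described as biological and carried the numbers 1 to 4 in each group, and all came from this single transformed line.

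FOXO factors are the transcriptional end of insulin and growth factor signaling. Insulin acts through IRS adaptor proteins and PI3K to activate the kinase AKT, which phosphorylates FOXO proteins and holds them out of the nucleus, so most of their regulation is at the level of the protein and is not visible in RNA. When AKT activity is low, nuclear FOXO proteins bind the DNA sequence GTAAACA and related sites and induce genes of fasting, stress resistance and growth arrest, including feedback genes that act on the insulin pathway itself.

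The promoters of the members that hold a FOXO recognition sequence near their start are shown first, because they give the DNA context of the genes described here. The core sequence GTAAACA and the insulin response sequence CAAAACAA were searched on both strands of windows of 300 bases, 250 before and 50 after each RefSeq transcription start (GRCh38.p14). All 10 members had a window, 16 windows in total. GTAAACA was found in 3 of the 16 windows and in 3.42% of 35116 windows of all genes, and CAAAACAA in 1 of the 16 and in 1.68% of all windows. The 4 windows are written 5′ to 3′ on the strand of the gene, with the matched bases in capitals.
DEPP1: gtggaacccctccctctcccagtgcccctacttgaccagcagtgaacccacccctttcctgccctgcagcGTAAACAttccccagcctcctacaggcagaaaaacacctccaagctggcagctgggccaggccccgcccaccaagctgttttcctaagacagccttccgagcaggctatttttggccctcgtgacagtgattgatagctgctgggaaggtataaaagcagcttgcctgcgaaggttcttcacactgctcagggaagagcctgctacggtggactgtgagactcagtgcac
FOXO4: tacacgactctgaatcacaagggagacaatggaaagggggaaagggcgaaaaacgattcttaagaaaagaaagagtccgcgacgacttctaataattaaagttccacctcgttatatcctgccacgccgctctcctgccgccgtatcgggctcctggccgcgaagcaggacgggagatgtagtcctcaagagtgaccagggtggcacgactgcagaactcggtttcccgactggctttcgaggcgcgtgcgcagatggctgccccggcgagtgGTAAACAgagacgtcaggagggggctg
IRS2: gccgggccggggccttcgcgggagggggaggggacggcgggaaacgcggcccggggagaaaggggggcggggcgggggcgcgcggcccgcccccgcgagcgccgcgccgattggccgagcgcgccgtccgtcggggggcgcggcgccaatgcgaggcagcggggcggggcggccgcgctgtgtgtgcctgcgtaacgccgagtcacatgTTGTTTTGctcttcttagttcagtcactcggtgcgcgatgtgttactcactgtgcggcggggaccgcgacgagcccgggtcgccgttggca
PIK3IP1: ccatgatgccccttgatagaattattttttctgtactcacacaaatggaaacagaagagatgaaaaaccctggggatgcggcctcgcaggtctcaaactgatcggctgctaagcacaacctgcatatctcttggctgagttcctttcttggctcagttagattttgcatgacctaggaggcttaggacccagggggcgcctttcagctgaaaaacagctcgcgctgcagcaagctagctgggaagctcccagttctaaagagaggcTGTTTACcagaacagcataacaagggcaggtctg
The DEPP1 window is chr10:44978760-44979059 on the minus strand, with GTAAACA from 180 to 174 bases before the start. The FOXO4 window is chrX:71095601-71095900 on the plus strand, with GTAAACA from 24 to 30 bases after the start, within the transcribed sequence. The IRS2 window is chr13:109786534-109786833 on the minus strand, and its capitals, 41 to 34 bases before the start, are CAAAACAA read on the opposite strand. The PIK3IP1 window, the second of 2 start sites, is chr22:31292439-31292738 on the minus strand, and its capitals, 17 to 23 bases after the start, are GTAAACA read on the opposite strand. Of these 4 genes, FOXO4 and PIK3IP1 had higher and IRS2 lower levels in DZNep, beside the increase of DEPP1, and a match in a window is a description of letters and not of a bound site. The windows of the other 6 members held neither sequence.

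The libraries held between 25043058 and 44902779 counted reads. Mitochondrial genes took 3.02% to 13.7% of the reads in Control and 4.25% to 10.1% in DZNep, and the shares were highest in replicate 4 of both groups. Genes are called by the rule given in the next paragraph, which called 24.2% of all tested genes, 10.6% higher and 13.5% lower. Of 7 marker genes of HEK293 cells, all were tested, and KRT8 was called higher and IRS4 lower (28.6% called). The 7 markers had a summed normalized count of 42329 to 54407 in Control and 38578 to 48396 in DZNep. The summed count of 5 leukocyte markers was 169 to 322 in Control and 208 to 610 in DZNep, and CD3E, a T cell marker, was at 0 in all Control libraries. Of these markers 4 were tested and 0 called, with a median log2 fold change of −0.01. The marker LYZ was called higher with no filter on low counts and without DZNep 1, DZNep 3 or DZNep 4. For 5 endothelial markers the sum was 169 to 201 in Control and 238 to 358 in DZNep. Of these 5, 3 were called higher and 2 were not called (60.0% called), with log2 fold changes from −0.22 to 5.19. VWF, which encodes von Willebrand factor, was 1 of the 3, with 2.81 normalized counts in Control and 103 in DZNep on average. The 6 fibroblast markers summed to 4233 to 8659 and 3677 to 9159, with 1 called higher (16.7% called). A share of so few genes is a description and not a test. The part of these shifts in the results below was not tested. In bulk RNA, a change in the number of cells expressing a gene cannot be told apart from a change in RNA per cell.

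Normalized counts are the read counts divided by a size factor per library. A gene was called changed with a Benjamini-Hochberg adjusted p below 0.05 over all 19171 tested genes (edgeR quasi-likelihood test) and a log2 fold change beyond 1 in either direction. By this rule 6 of the 10 members were called, 4 higher and 2 lower, where 24.2% of all tested genes were called, 10.6% higher and 13.5% lower. Because DEPP1 entered for its increase, the count includes 1 call that the choice of members fixed. The other members were also listed with earlier results of these data known, so the count is a description and not a test. The members called higher were DEPP1, PDK4, CITED2 and PIK3IP1, the members called lower were KLF15 and IRS2, and FOXO1, FOXO3, FOXO4 and SESN3 were not called. The ranges of the groups did not overlap for 7 of the 10 members, 5 higher and 2 lower, against 38.9% of all tested genes, 19.5% higher and 19.4% lower. By adjusted p alone 7 members passed, 5 higher and 2 lower, against 40.8% of all tested genes, 19.1% higher and 21.8% lower. With the replicate number as a block, again 6 members were called, where 26.0% of all tested genes were (11.7% higher and 14.3% lower). With the block 8 members passed adjusted p alone, 6 higher and 2 lower, where 59.0% of all tested genes did (28.8% higher and 30.2% lower). The median log2 fold change of the members was 0.84, against −0.03 over all tested genes.

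The levels of the members in Control, in CPM per kilobase of exon, stood in the order FOXO3, CITED2, FOXO4, SESN3, KLF15, FOXO1, IRS2, PIK3IP1, PDK4 and DEPP1. FOXO3 at 17.6 ± 2.00 and CITED2 at 15.97 ± 6.24 differed by less than the larger SD of the pair, and so did FOXO4 at 7.52 ± 2.20 from SESN3 at 6.13 ± 2.84, and SESN3 from KLF15 at 5.23 ± 1.08. The same held for IRS2 at 1.65 ± 0.278 and PIK3IP1 at 1.43 ± 0.601, and for PIK3IP1 and PDK4 at 1.06 ± 0.361. In DZNep the order began with CITED2 at 147 ± 41.3 and ended with KLF15 at 0.229 ± 0.0622.

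**Figure D1:**
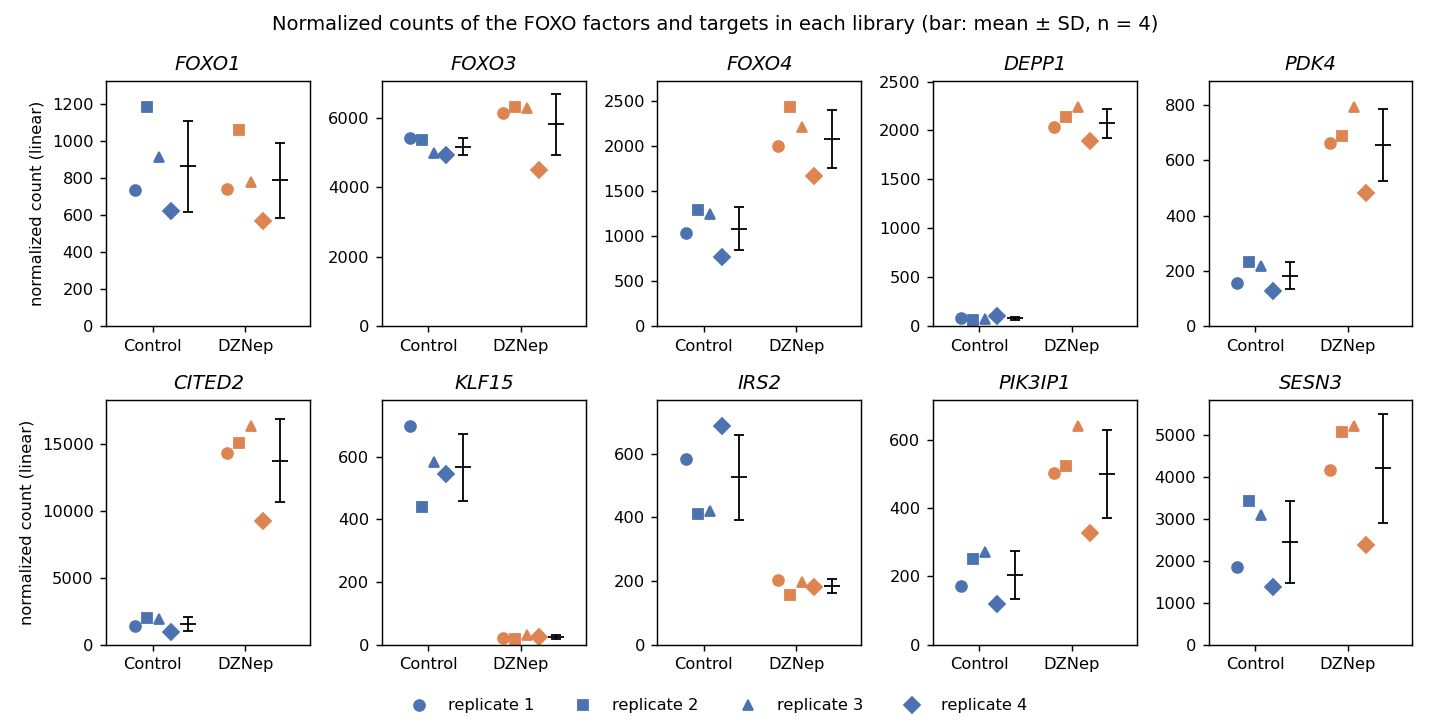
Normalized counts (linear axes from 0) of the 10 genes in each of the 8 libraries, with 1 panel per gene, 1 marker shape per replicate number, and the mean ± SD of 4 libraries as a bar. The groups are apart for DEPP1, PDK4, FOXO4, IRS2, KLF15, CITED2 and PIK3IP1, and overlap for FOXO1, FOXO3 and SESN3.

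Of the transcription factors themselves, FOXO4 passed the test of significance and FOXO1 and FOXO3 did not. FOXO4 (ENSG00000184481, chrX:71095851-71103532) had 1036, 1283, 1238 and 763 normalized counts in Control 1 to 4 and 2001, 2428, 2207 and 1669 in DZNep 1 to 4. Every DZNep library was above every Control library, and the mean went from 1079.9 ± 237 to 2076 ± 323 (SD, n = 4), or 1.92-fold. The log2 fold change was 0.92 ± 0.19 (SE; edgeR adjusted p = 0.00381), which passed the test of significance and stayed short of the 2-fold limit. FOXO4 shares the forkhead DNA-binding domain of FOXO1 and FOXO3 and is likewise a substrate of AKT. Without Control 2 or without DZNep 4 the value was 1.01, which counts as a call.

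FOXO3 (ENSG00000118689, chr6:108559835-108684774), the family member best known for inducing stress resistance and apoptosis genes, had the highest mean level of the 10 members in Control, 17.6 ± 2.00 CPM per kilobase of exon (SD, n = 4). Its normalized counts were 5429.5, 5360.3, 5007 and 4927 in Control and 6161, 6315, 6302 and 4497 in DZNep. DZNep 1 to 3 were above all Control libraries and DZNep 4 was below all of them, so that the log2 fold change of 0.14 had a 95% interval from −0.19 to 0.48 (edgeR adjusted p = 0.489). FOXO3B, a nearly identical gene copy on chromosome 17, had 39 to 241 reads in Control and 107 to 416 in DZNep. The authors counted unique reads only, so reads matching both copies equally were left out of both counts.

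FOXO1 (ENSG00000150907, chr13:40555667-40666641) is the main FOXO factor of insulin-regulated glucose production in liver. It had 734, 1183, 915 and 619.9 normalized counts in Control and 744, 1062, 777 and 569 in DZNep. The groups overlapped, replicate 2 was highest and replicate 4 lowest in both, and the log2 fold change was −0.16 with a 95% interval from −0.69 to 0.37 (edgeR adjusted p = 0.633).

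Ratios between the factors within each library do not depend on how libraries were scaled. The log2 ratio of FOXO4 to FOXO1 was 0.99 ± 0.17 in Control and 2.07 ± 0.16 in DZNep (SD, n = 4), a difference of 1.08 that ranged from 0.93 to 1.25 over the 4 same-numbered pairs. The log2 ratio of FOXO4 to FOXO3 was −1.27 ± 0.32 in Control and −0.47 ± 0.11 in DZNep, and was higher in DZNep in all 4 pairs, by 0.50 to 1.26. With labels exchanged freely among the 8 libraries, both gave p = 0.0286 (exact two-sided permutation test, adjusted p = 0.0429 over 3 ratios). This p is the smallest that the free exchange allows, and both ratios share FOXO4, so they are not independent. With labels exchanged only within the pairs, both gave p = 0.125 (exact permutation test), the smallest that 4 pairs allow, so that a paired test cannot reach 0.05 here. The log2 ratio of FOXO3 to FOXO1 differed by 0.28, less than the SD of 0.38 in Control (exact permutation p = 0.2, or 0.25 within pairs). These ratios were chosen after the data were seen. Per kilobase of exon, FOXO4 made up 21.6% ± 4.18 of the summed level of the 4 FOXO genes in Control and 35.3% ± 1.48 in DZNep. FOXO6, the fourth gene of the family, had the opposite sign, from 514 ± 183 to 276 ± 62.9 normalized counts, and passed the test of significance but not the 2-fold limit (log2 fold change −0.92, edgeR adjusted p = 0.0212). It passed that limit as well without Control 2, Control 3 or DZNep 4.

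**Figure D2:**
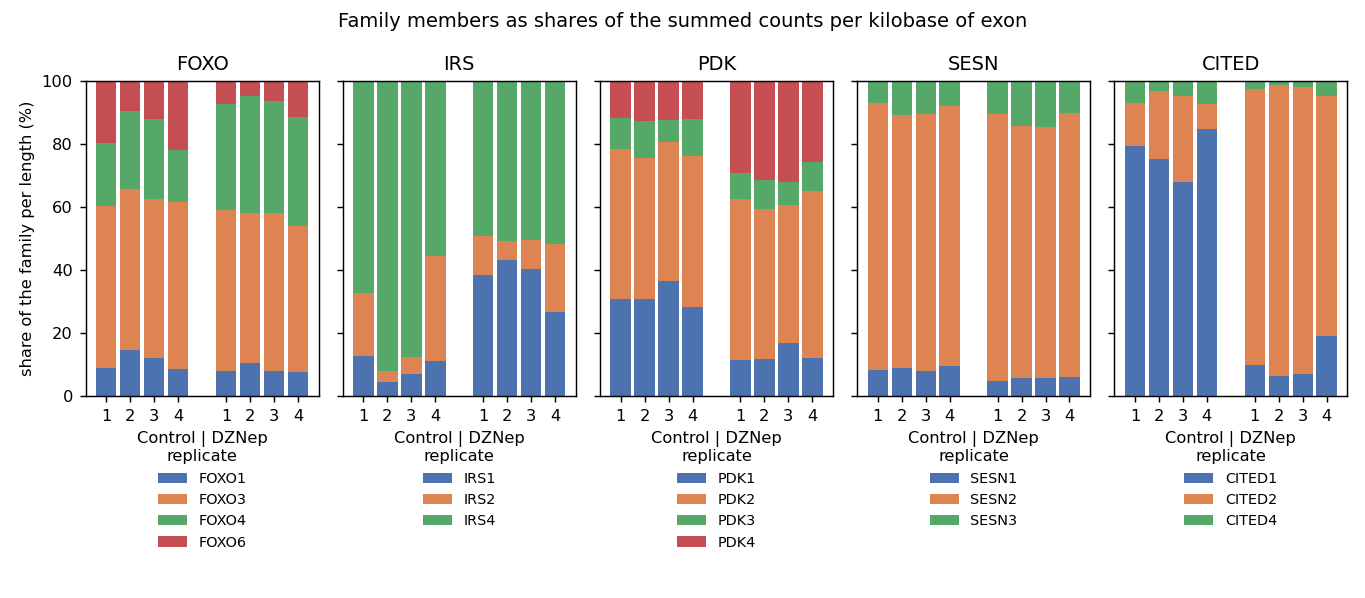
Share (%) of each gene in the summed level of its family, per kilobase of exon, with 1 stacked bar per library for the FOXO, IRS, PDK, SESN and CITED families. FOXO4 gains share within the FOXO family, PDK4 within the PDK family, and CITED2 replaces CITED1 as the largest part of the CITED family.

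DEPP1 and PDK4 are textbook FOXO targets. DEPP1 (ENSG00000165507, chr10:44970981-44978809), induced by fasting and progesterone and linked to autophagy and the handling of reactive oxygen, had 77.1, 64.3, 71.7 and 97.8 normalized counts in Control and 2039, 2133, 2237 and 1889 in DZNep. All DZNep libraries were far above all Control libraries and close to each other. The mean went from 77.7 ± 14.4 to 2075 ± 148 (SD, n = 4), a 26.7-fold difference with a log2 fold change of 4.71. DEPP1 had the 8th largest positive log2 fold change among the 13624 genes whose mean level reached 1 on the log2 CPM scale. In CPM per kilobase of exon it was the lowest of the 10 members in Control, at 0.671 ± 0.0662, and in DZNep, at 18.8 ± 2.59, only CITED2 and FOXO3 had higher means. FOXO3 was at 20.6 ± 4.23 there, so that the levels of DEPP1 and FOXO3 in DZNep differed by less than the SD. RASSF4 overlaps DEPP1 on the opposite strand, and its reads were 259 to 481 in Control and 270 to 320 in DZNep. These are reads not divided by the size factor, and 259 belongs to Control 1, the library with the fewest reads. Control 2 to 4, at 322 to 481 reads, were above all DZNep libraries. RASSF4 thus had no increase like that of DEPP1, and its own difference was not tested.

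The genes whose profile over the 8 libraries lay nearest to that of DEPP1, measured as the root mean square distance of log2 values centered on the Control mean of each gene, among 13623 others, were COL9A1 at 0.222, KRTAP19-1 at 0.358 and ANKRD1 at 0.397. COL9A1 encodes a chain of cartilage collagen, KRTAP19-1 a hair keratin-associated protein and ANKRD1 a stress-induced muscle ankyrin repeat protein. By this measure a near gene must have a change of similar size, the trait for which DEPP1 was chosen. Their log2 fold changes were 4.79, 4.55 and 4.69 in that order, beside 4.71 for DEPP1.

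PDK4 (ENSG00000004799, chr7:95583499-95596516) encodes a kinase that inactivates pyruvate dehydrogenase and so spares glucose during fasting. Its normalized counts were 154, 231, 216 and 128 in Control and 661, 689, 792 and 480.4 in DZNep. The lowest DZNep library was above the highest Control library, and the same-numbered pairs differed by 1.57 to 2.09 in log2(normalized count + 1). The log2 fold change was 1.82 ± 0.23 (SE; edgeR adjusted p = 0.000234). Among the 4 PDK genes the share of PDK4 per kilobase was 11.6% to 12.8% in Control and 25.6% to 31.96% in DZNep. PDK1, which is induced by hypoxia, had a log2 fold change of −0.75 (edgeR adjusted p = 0.0464), PDK2 of 0.63 (edgeR adjusted p = 0.0128) and PDK3 of 0.33 (edgeR adjusted p = 0.187), and none of these was called. Among all tested genes, edgeR called 24.2%. Of 11 genes of the pyruvate dehydrogenase complex and its regulators apart from PDK4, 0 were called in either direction by edgeR or by DESeq2. Without Control 2 or without DZNep 4, edgeR called 1 higher, PDP1, a phosphatase that reactivates the complex, with log2 fold changes of 1.01 and 1.06 (named after its values were seen). In edgeR, adjusted p alone was passed by 3 with a positive and 2 with a negative sign, where 40.8% of all tested genes passed it (19.1% higher and 21.8% lower). An unadjusted p below 0.05 was found for 5, a count for which no share over all genes was taken.

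CITED2 and SESN3 are FOXO targets outside glucose metabolism. CITED2 (ENSG00000164442, chr6:139371807-139374648) encodes a co-regulator that competes with hypoxia-inducible factors for the coactivators CBP and p300. It had 1375, 1970.4, 1909.8 and 908 normalized counts in Control and 14351, 15111, 16390.4 and 9249 in DZNep. Every DZNep library was several times above the highest Control library, and the log2 fold change was 3.13 ± 0.29 (SE; edgeR adjusted p = 3.77e-05). This was the 328th largest positive value among all 19171 tested genes and the 53rd among the 13624 genes. In CPM per kilobase of exon CITED2 was at 15.97 ± 6.24 in Control and 147 ± 41.3 in DZNep, the highest of the 10 members there.

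Its relative CITED1 moved the other way, from 5002 ± 1413 to 1077 ± 379 normalized counts, with a log2 fold change of −2.24 (edgeR adjusted p = 0.000225). The share of CITED2 in the summed per-kilobase level of the 3 CITED genes was 7.98% to 27.5% in Control and 76.2% to 92.3% in DZNep, and CITED4 had a log2 fold change of −0.52 (edgeR adjusted p = 0.314). Of the 10 other genes of the list of CITED factors and hypoxia-inducible factor partners, CITED1 was the 1 called lower and CREBBP the 1 called higher. Calls made up 20.0% of this list, against 24.2% of all tested genes. CREBBP, which encodes the coactivator CBP, had 3526 ± 1012 and 8535 ± 2369.9 normalized counts and a log2 fold change of 1.25 (edgeR adjusted p = 0.00365).

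SESN3 (ENSG00000149212, chr11:95165513-95232541) encodes a sestrin, a stress protein that restrains mTORC1. Its normalized counts were 1839, 3432, 3088 and 1382 in Control and 4154, 5059, 5213 and 2378 in DZNep. DZNep 4 lay within the Control range and the other DZNep libraries above it. Each same-numbered pair was higher in DZNep, by 0.56 to 1.17 in log2(normalized count + 1), and the log2 fold change of 0.76 ± 0.32 (SE) did not pass (edgeR adjusted p = 0.086). With the replicate number as a block it was 0.79 and passed the test of significance (edgeR adjusted p = 6.27e-05), short of the 2-fold limit. LNCRNA-IUR, an antisense gene that overlaps SESN3, had 22 to 61 reads in Control and 75 to 158 in DZNep. SESN1 had a log2 fold change of −0.31 (edgeR adjusted p = 0.219) and SESN2 of 0.31 (edgeR adjusted p = 0.288). Without the replicate block, edgeR called 24.2% of all tested genes. Of the 12 genes of the sestrin and GATOR list other than SESN3, it called 0. Adjusted p alone was passed by 1 with a positive and 2 with a negative sign in edgeR, where 40.8% of all tested genes passed it (19.1% higher and 21.8% lower). An unadjusted p below 0.05 was found for 4, a count for which no share over all genes was taken. With the block edgeR called 1 higher, CASTOR2, which belongs to a family of arginine sensors of this pathway, with a log2 fold change of 1.53 (edgeR adjusted p = 4.94e-05). CASTOR2, named after its values were seen, was also called with no filter on low counts, without Control 2, without DZNep 4 and by DESeq2.

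The members acting on insulin signaling moved in both directions. IRS2 (ENSG00000185950, chr13:109752695-109786583), an adaptor of the insulin receptor and a gene that FOXO factors induce in liver, had 584, 411, 421 and 688 normalized counts in Control and 204, 156, 198 and 180.0 in DZNep. The highest DZNep library was below the lowest Control library, and IRS2 fell by 1.54 on the log2 scale (SE 0.21; edgeR adjusted p = 0.000305). PIK3IP1 (ENSG00000100100, chr22:31281594-31292534), a membrane protein that inhibits PI3K, had 171, 253, 273 and 119 normalized counts in Control and 505, 525, 643 and 328 in DZNep. These ranges did not overlap, and the log2 fold change was 1.26 ± 0.29 (SE; edgeR adjusted p = 0.00587).

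KLF15 (ENSG00000163884, chr3:126342635-126357408), a zinc finger factor that promotes gluconeogenesis and amino acid breakdown and responds to glucocorticoids, had the largest decrease of the members. Its normalized counts were 698, 438, 581 and 545 in Control and 20.9, 18.5, 31.1 and 24.7 in DZNep. The groups were far apart, with means of 566 ± 107 and 23.8 ± 5.49 (SD, n = 4), and KLF15 fell by 4.59 on the log2 scale (SE 0.24; edgeR adjusted p = 2.97e-06). It had the 18th largest negative log2 fold change among all 19171 tested genes and the 9th among the 13624 genes. Of 14 other KLF genes tested, 1 was called higher and 1 lower, with a median log2 fold change of 0.61. Calls made up 14.3% of these genes, against 24.2% of all tested genes. KLF9, which also responds to glucocorticoids, rose by 1.08 on the log2 scale (edgeR adjusted p = 0.00946), and KLF14 fell by 1.18 (edgeR adjusted p = 0.0175). The KLF9 call was lost without Control 4 or DZNep 3, and the KLF14 call without DZNep 2. A total of 2 KLF genes were called higher with library size alone, without Control 2 or without DZNep 4.

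**Figure D3:**
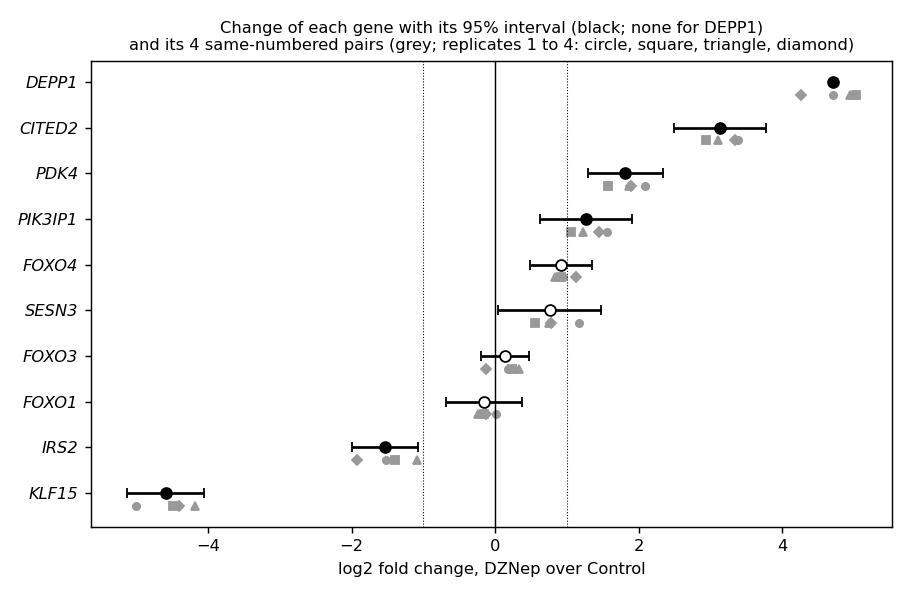
Log2 fold change of DZNep against Control for the 10 genes, with the 95% interval from edgeR as a bar (none for DEPP1, which was chosen for its increase), filled points for called genes, grey points for the 4 same-numbered pairs in log2(normalized count + 1) and dotted lines at the 2-fold limits. DEPP1 at 4.71 and KLF15 at −4.59 lie at opposite ends, and FOXO1 and FOXO3 have intervals that include 0.

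The wider insulin pathway was read from a list of 40 genes from the receptors to AKT, of which 37 were tested. Of these, 2 were called higher and 5 lower, with a median log2 fold change of 0.05. Calls made up 18.9% of the tested list, against 24.2% of all tested genes. IGF2, a growth factor and 1 of the 5, was called at −1.10 (edgeR adjusted p = 0.0393) and not with the replicate block (−0.94), with library size alone, or in 6 of the 8 fits that each left out 1 library (named after its values were seen). Without DZNep 4 the list had 3 lower calls, and without Control 2 it had 4 higher calls. SGK1, a kinase close to AKT that also phosphorylates FOXO proteins, rose from 195 ± 72.2 to 1216 ± 105 normalized counts, with a log2 fold change of 2.61 (edgeR adjusted p = 6.19e-05). INPP4B, a phosphatase that acts downstream of PI3K, rose by 1.59 on the log2 scale (edgeR adjusted p = 0.000329). TRIB3, a pseudokinase that binds AKT, fell by 1.76 (edgeR adjusted p = 0.00113).

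AKT1 fell from 4802 ± 275 to 2243 ± 217 normalized counts, by 1.13 on the log2 scale (edgeR adjusted p = 0.000152). AKT2 was at 3879 ± 397 and 6433 ± 433 with a log2 fold change of 0.70 (edgeR adjusted p = 0.00248), short of the 2-fold limit. The insulin receptor gene INSR had a log2 fold change of −0.75 (edgeR adjusted p = 0.00396), short of the limit, and IGF1R of 0.33 (edgeR adjusted p = 0.279).

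Among the IRS adaptors, IRS4 was the most abundant in Control and varied most. Its normalized counts were 3977, 22089, 13825 and 2335 in Control and 1635, 2675, 2160.1 and 881 in DZNep. DZNep 2 was above Control 4, so the groups overlapped, and IRS4 fell by 2.55 on the log2 scale (edgeR adjusted p = 0.0104), or by 2.14 with the replicate block (edgeR adjusted p = 2.66e-06). IRS1 had a log2 fold change of 0.73 that did not pass (edgeR adjusted p = 0.206), and 1.03 without DZNep 4 (edgeR adjusted p = 0.0238).

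The list of other FOXO targets held 40 genes, of which 34 were tested, 4 were called higher and 1 lower. Calls made up 14.7% of the tested list, against 24.2% of all tested genes. The median log2 fold change was 0.30 against −0.03 over all genes. Without Control 1, Control 3 or DZNep 3, 2 were called higher. PCK1, the gluconeogenic enzyme induced by FOXO1 in liver, was at 84.8, 46.4, 107 and 82.7 normalized counts in Control and 138, 112, 792 and 111 in DZNep. Its call rested on DZNep 3, since the log2 fold change was 1.82 (edgeR adjusted p = 0.0467) with that library and 0.56 (edgeR adjusted p = 0.184) without it, and the call was also lost without each Control library. PRDX5, which encodes an antioxidant peroxiredoxin, fell by 1.21 on the log2 scale (edgeR adjusted p = 0.0128), a call that was lost without Control 4. SOD2 was not matched by its symbol and was not analysed here.

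Of 6 cell cycle genes linked to FOXO factors, 2 were called higher and 0 lower, or 33.3% called against 24.2% of all tested genes. PLK1, a mitotic kinase, rose by 1.46 on the log2 scale (edgeR adjusted p = 0.00043) and FOXM1, a forkhead factor of the mitotic program, by 1.05 (edgeR adjusted p = 0.00451). The FOXM1 call was lost without Control 1 or Control 4. Of 30 genes for FOXO partners and modifying enzymes, 2 were called higher and 0 lower, or 6.67% called against 24.2% of all tested genes. SFN, which encodes a 14-3-3 protein, rose from 10.1 ± 5.39 to 85.2 ± 25.0 normalized counts (log2 fold change 3.10, edgeR adjusted p = 0.000255), and CREBBP, given above, was the other. With the replicate block another gene was also called, CTNNB1, which encodes beta-catenin, at 1.11 (edgeR adjusted p = 2.94e-05) against 0.99 without the block. CTNNB1, named after its values were seen, was also called by DESeq2, with median-ratio size factors, with at least 10 reads in every library, without Control 2 and without DZNep 4.

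PDK4 and KLF15 are also controlled by glucocorticoid receptors or PPAR factors, so genes of both pathways were read beside them. Of 11 glucocorticoid-responsive genes, 4 were called higher and 0 lower, where 10.6% of all tested genes were called higher and 13.5% lower. KLF15, with its log2 fold change of −4.59, was not among the 11. The 4 included SGK1 and KLF9, given above, and DUSP1, a phosphatase of MAP kinases, with a log2 fold change of 1.57 (edgeR adjusted p = 0.000366). The receptor gene NR3C1 had 0.17 (edgeR adjusted p = 0.503). The part of glucocorticoid signaling in these changes was not tested. Of 12 PPAR genes, 11 were tested, 2 were called higher and 2 lower. Calls made up 36.4% of the tested genes in each of these 2 lists, against 24.2% of all tested genes. PLIN2, a lipid droplet protein, had a log2 fold change of 1.46 and FABP3, a fatty acid carrier, of 1.41, while the receptor gene PPARA fell by 1.20 (edgeR adjusted p = 0.000537). UCP3, a mitochondrial carrier, fell by 1.96 (edgeR adjusted p = 0.0283), a call lost without Control 1, Control 4, DZNep 1, DZNep 2 or DZNep 3.

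**Figure D4:**
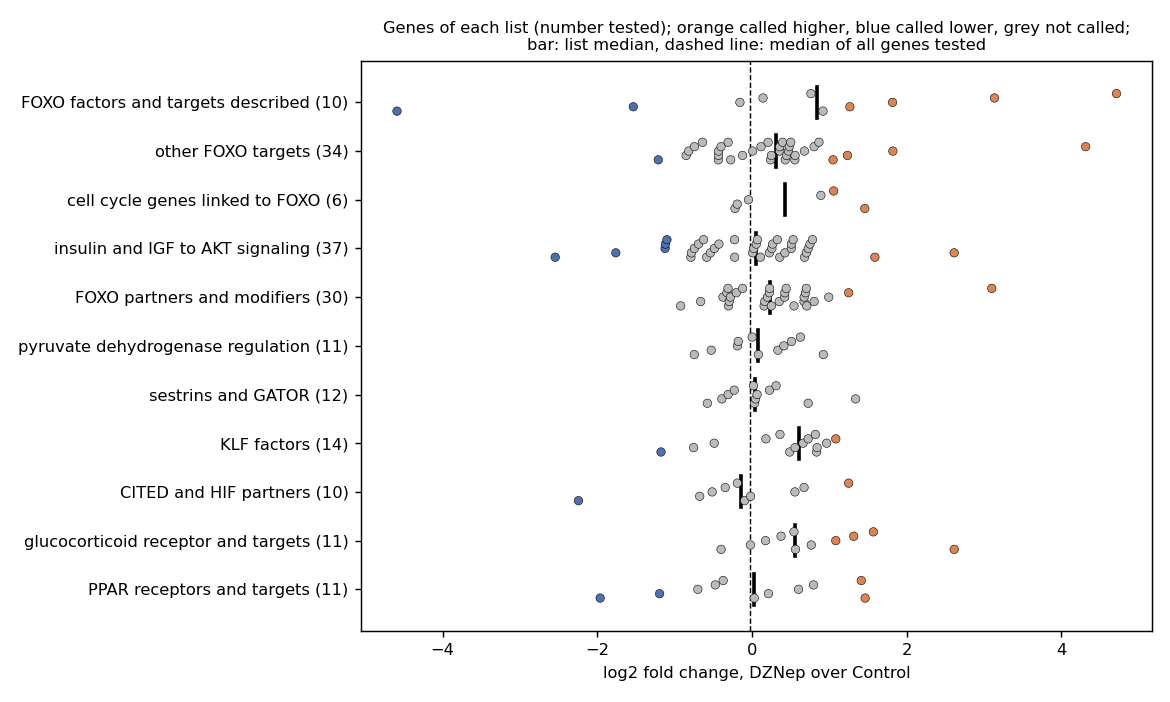
Log2 fold change of DZNep against Control for each tested gene of the members and of the 10 pathway lists, with orange points for genes called higher, blue for genes called lower and grey for the rest, the list median as a bar and the median of all genes as a dashed line. Most genes of each pathway list lie within the 2-fold limits. The lists reach from −2.55 (insulin and IGF to AKT signaling) to 4.31 (other FOXO targets). The members, listed with earlier results known and with DEPP1 listed for its increase, reach from −4.59 to 4.71.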

How the data were processed

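RNA of HEK293T cells was sequenced in 8 libraries, 4 Control and 4 DZNep, and groups and replicate numbers were taken from the sample labels. Per the labels and methods, the authors trimmed reads with Trimmomatic 0.36, aligned them with STAR 2.5.2b and counted exonic reads with featureCounts (Subread 1.5.2). The authors deposited raw read counts for 57500 genes and a normalized signal, the counts divided by a size factor per library, for 19118 genes. The strandedness of counting is not given in the sources used here. Gene symbols, coordinates and exon lengths came from GENCODE v44 (GRCh38), and 56410 IDs had a symbol. Promoters came from RefSeq. Counts were tested with edgeR 4.0.16 in R 4.3.3 (filterByExpr, TMM, glmQLFit and glmQLFTest), DZNep against Control, with Benjamini-Hochberg adjustment over 19171 genes. A gene was called at adjusted p below 0.05 and an absolute log2 fold change above 1. Standard errors are the log2 fold change over the root of F. Ratios within libraries were tested by exact permutation. The members and lists were chosen with earlier results of these data known.

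Alternatives were DESeq2 1.42.0, median-ratio size factors, library size alone, at least 10 reads in every library, no filter on low counts, reads recovered from the normalized values (equal to the raw counts), the replicate number as a block, and leaving out each library. Same-numbered libraries deviated together from their group means (correlation 0.14, 0.49, 0.43 and 0.67 for numbers 1 to 4), and since each was above 0.1 the numbers were taken to pair the samples. Other numbers also correlated, with 0.53 for Control 1 and DZNep 4, 0.40 for Control 2 and DZNep 3 and 0.34 for Control 3 and DZNep 2, so that numbers 1 and 4 deviated against 2 and 3. These correlations therefore do not establish that same-numbered libraries were pairs, and the block stands as an alternative only. On simulated counts for 18812 genes, 170 of 200 changed genes were recovered with 8 false calls. Each planted change was a log2 fold change of 2 in either direction, so recovery of smaller changes was not measured. The simulation held no deviation shared between libraries. Genes were named by rule: all members, the called genes with the largest change in each list (up to 2 higher and 2 lower), the 3 profiles nearest to DEPP1, and genes at the center of a pathway step. The p-values measure the spread between these libraries of 1 cell line. The libraries held 25043058 to 44902779 counted reads, and the SE of the members did not follow their read numbers. SESN3 had an SE of 0.32 at 1193 to 6282 reads, and KLF15 of 0.24 with 22 to 36 reads in DZNep. Culture medium was named differently in the labels and the methods. Results for 2 genes that this rule names are not reported here.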

Additional observations from a re-analysis of the deposited data

Results flagged for a closer look

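In FOXO3, the DZNep replicate 4 library stood apart from the others of its group, with 4497 normalized counts against 6161 to 6315. Its gap to the nearest library was 0.915 of the group's range, above the 95% limit of Dixon's test for 4 samples. 20 groups of 4 were examined, and chance gives about 1 in 20. Replicate 4 was the lowest library in both groups for 7 of the 10 members, and its mitochondrial share was the highest of each group. The same count over all tested genes was not made, so it cannot be read as a trait of the members. The part of the mitochondrial share in the FOXO3 value was not tested.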

How the results depend on the processing

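PDK4, CITED2, PIK3IP1, KLF15 and IRS2 kept their direction and call under all 15 alternatives. DEPP1 did so too, which its selection on these libraries fixed in large part. Leaving out 1 library gave log2 fold changes of 0.77 to 1.01 for FOXO4, which passed the 2-fold limit without Control replicate 2 (1.01) and without DZNep replicate 4 (1.01). For FOXO1 the same range was −0.33 to 0.029, with the positive value of 0.029 without Control replicate 2. The cause was not tested. Over all genes, 2041 were called higher and 2589 lower, and leaving out 1 library gave 1936 to 2383 and 2322 to 2993. Requiring at least 10 reads in every library gave 1141 called higher, with fewer genes tested. With the replicate block for the shared numbers, 2243 genes were called higher and 2736 lower (26.0% of genes), and the same count of 6 members was called. With it, 8 rather than 7 members passed adjusted p alone, where 59.0% of all genes did. Of 300 counts of list genes over the alternatives, 32 differed from the reported count by over 1.5 times, each by at most 2 genes. The log2 ratios of FOXO4 to FOXO1 and to FOXO3 differed by 1.01 to 1.16 and by 0.67 to 0.90 without 1 library, where the exact permutation test cannot go below p = 0.0571. KLF15 in DZNep rested on 18.5 to 31.1 normalized counts per library, the lowest of the members.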
